A study of Homo sapiens with 6 samples.

Results

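Aminoacyl-tRNA synthetases are the enzymes that attach each amino acid to its transfer RNA. Their genes were followed in Huh7 cells, a human hepatocellular carcinoma line, with and without knockdown of SRSF10, a splicing regulator of the serine and arginine rich protein family. The set held 36 genes of the 60623 in the expression table. It was made of 18 cytosolic synthetases, 16 mitochondrial synthetases and 2 scaffold proteins of the synthetase complex, AIMP1 and AIMP2. Members were matched by name, as a row whose symbol is the member's or its older form without the final 1. This rule uses no measured value, but the list itself was chosen with earlier results of these data known. Each member matched 1 row.

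The series compared 3 control libraries, whose genotype is labelled WT and whose treatment is given as not applicable, with 3 libraries of Huh7 cells in which SRSF10 was knocked down by a short hairpin RNA, as the series title has it. All 6 libraries came from the same line. Nothing in the labels tells if a non-targeting hairpin was used for the controls, which hairpin targeted SRSF10, or if the replicates were separate cultures, so p-values measure the spread between these libraries, which may be technical. In these bulk samples, fewer cells of a kind and less RNA per cell cannot be told apart.

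A synthetase joins an amino acid to ATP and then passes it to the matching tRNA, and ribosomes can use an amino acid only in this charged form. Human cells have separate nuclear genes for most cytosolic and mitochondrial enzymes, although GARS1 and KARS1 each encode both forms. Several cytosolic synthetases sit with scaffold proteins in a multisynthetase complex, and uncharged tRNA activates the kinase GCN2, which raises translation of the transcription factor ATF4, a known activator of several cytosolic synthetase genes.

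ATF4 binds with partners of the C/EBP family at a composite element, so the promoters were searched for it. The sequences are shown because the members that hold the element differ in how they moved. Windows of 300 bases, from 250 before to 50 after the RefSeq transcription start (GRCh38.p14), were found for 31 of the 36 members. LARS1, VARS1, YARS1, AARS2 and VARS2 had no window here. The motif TTGCATCA was searched on both strands, as was TGATGNAA, which contains its reverse complement. The stricter form TTGCATCA stood in 5 of 31 members, all of them cytosolic (5 of 15), against 0 of 14 mitochondrial ones, and in 1.08% of the 27305 genes with a window, or 0.866% of the 35116 windows. The looser TGATGNAA stood in 7 of 31 members, 6 cytosolic and 1 mitochondrial, and in 4.46% of genes, or 3.62% of windows. Each line gives 24 bases, 5′ to 3′ on the strand named, with the TGATGNAA match in capitals.
TARS1, chr5:33440959-33440982, minus strand: ggaccagcTGATGCAAtcgaaagg
GARS1, chr7:30594837-30594860, minus strand: tcggagcaTGATGAAAtcgccgcg
IARS1, chr9:92293695-92293718, plus strand: cacggaggTGATGCAAcgcgctga
CARS1, chr11:3057410-3057433, plus strand: ctagaatcTGATGCAAccgccgcc
MARS1, chr12:57488056-57488079, minus strand: tccctcgcTGATGCAAccggaacc
NARS1, chr18:57621807-57621830, minus strand: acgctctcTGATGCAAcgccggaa
YARS2, chr12:32756079-32756102, minus strand: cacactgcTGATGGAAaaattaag
In the 6 cytosolic promoters the match lay close to the start. Counted from the start base along the gene, its first base was at -33 in GARS1, -13 in IARS1, -4 in MARS1, -2 in CARS1, 2 in TARS1 and 14 in NARS1, so the last pair lie in the transcribed first exon. In YARS2 it was at -197. A match describes the letters of a window and does not show binding.

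Levels are given in FPKM, a fragment count scaled to gene length and library size. For SRSF10, the targeted gene, control libraries gave 18.6, 19.5 and 19.8 FPKM and knockdown libraries gave 10.6, 10.8 and 10.6 FPKM. The groups did not overlap, and the mean was 44.8% lower (19.3 ± 0.61 against 10.7 ± 0.12 FPKM, SD, n = 3 each; exact two-sided permutation p = 0.1, the smallest that 3 against 3 libraries allow). Depth, estimated from the steps between low FPKM values, was 12720000 to 14350000 fragments per library. Of the hepatocyte and liver cancer markers, 5 of 12 passed the filter on low values and 0 of them changed. Their summed level was 631 to 671 FPKM in controls and 612 to 663 after knockdown, mostly KRT8 and KRT18, while ALB, AFP, APOA1 and SERPINA1 were under 1 FPKM in every group mean and APOA2, TTR and GPC3 were listed at 0. EEF1G, an elongation factor that every cell uses, was also listed at 0 in all 6 libraries, so a 0 in this table may not mean that a gene is silent. Of the fibroblast markers, LUM rose from 4.40 ± 0.61 to 9.50 ± 0.67 FPKM (SD, n = 3; adjusted p = 0.000928), the other 5 of 6 were under 1 FPKM, and the list summed to 4.12 to 5.21 FPKM in controls and 9.55 to 10.5 after knockdown. Some untested markers also lay higher in all 3 knockdown libraries at these low levels, with means of 0.0618 and 0.381 FPKM for COL3A1, 0.0163 and 0.172 for DCN, 0.00723 and 0.106 for COL1A1, 0.1496 and 0.624 for ALB, and 0.106 and 0.623 for SERPINA1. The 5 blood cell markers summed to 0.0899 to 0.199 and 0.101 to 0.332 FPKM. The part of these markers in the results was not tested.

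The synthetase genes that changed moved by 8.03% (GARS1, higher) to 28.6% (WARS2, lower). Of the 36 members, 34 passed the filter of at least 1 FPKM in at least 3 libraries, and all 34 passed it in both groups. Among them 4 rose (WARS1, YARS1, GARS1 and EARS2) and 4 fell (AIMP2, TARS2, LARS2 and WARS2), each 11.8% of the tested members. Over all 12191 tested genes, 12.6% rose and 12.5% fell by the same test, limma on log2(FPKM + 1) with Benjamini-Hochberg adjustment over all tested genes and a threshold of 0.05. The members' shares were therefore near the background. Their median log2 fold change was -0.02, beside -0.01 over all tested genes. The 3 knockdown values lay above all 3 control values in 7 of the 34 tested members (background 20.6%). They lay below them in 11 of the 34, a larger share than the background of 22%, and this difference was not tested. The all-gene counts, 1542 higher and 1525 lower, depended on each knockdown library. They were 952 and 1015 without knockdown replicate 1, 943 and 982 without replicate 2, and 894 and 964 without replicate 3.

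**Figure D1:**
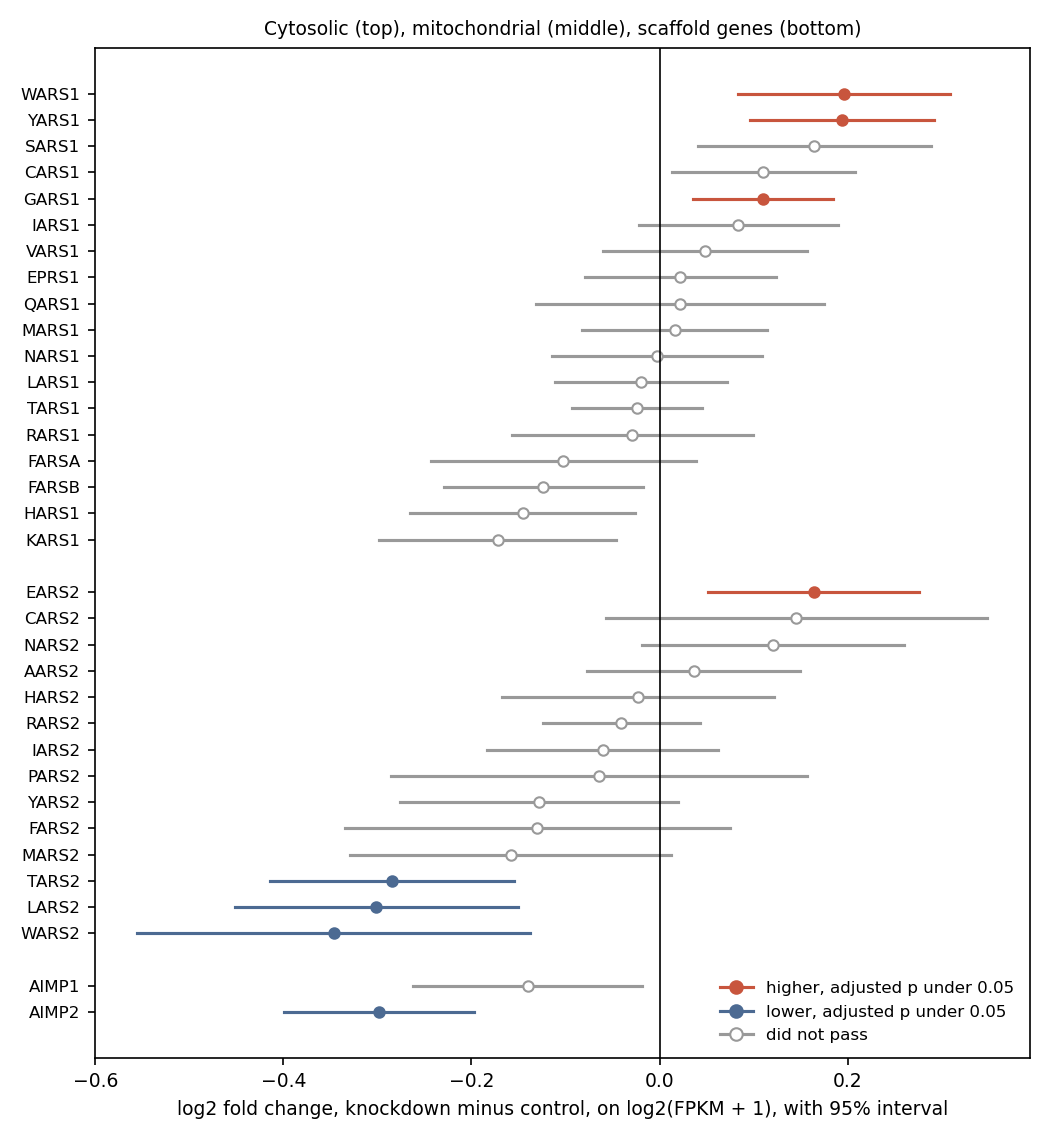
Log2 fold change of each of the 34 tested members, knockdown minus control, on the log2(FPKM + 1) scale (x axis), with 95% intervals from the limma fit over 3 libraries per group; filled points passed the adjusted threshold of 0.05. The 3 cytosolic members that passed lie to the right of 0, and 3 of the 4 mitochondrial ones and AIMP2 lie to the left.

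The members spanned a wide range of levels. FPKM divides fragments by a length. By the steps of low values, that length was about that of all annotated exons of a gene, not of a single transcript. The order of genes is therefore an order of FPKM and may differ from that of transcript numbers. GARS1 (glycine) and NARS1 (asparagine) had the highest levels, at 62.5 ± 1.5 and 63.5 ± 3.6 FPKM in controls and 67.5 ± 0.82 and 63.4 ± 1.5 after knockdown (SD, n = 3 each). In the controls these neighbours in the order did not differ beyond their spread. EPRS1, which charges both glutamate and proline, followed at 54.5 ± 2.6 and 55.3 ± 1.3 FPKM, and IARS1 (isoleucine) at 50.8 ± 2.4 and 53.8 ± 1.7. The lowest cytosolic gene in FPKM was CARS1 (cysteine), at 6.62 ± 0.07 and 7.23 ± 0.19. Its annotated exons hold 10037 bases, and it had an estimated 845 to 1041 fragments per library. FARSB, with 3369 exon bases and 19.1 ± 1.0 FPKM in controls, had 752 to 893.

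Mitochondrial enzymes were lower in FPKM as a class. Their median was 7.01 FPKM in controls and 6.71 after knockdown, against 26.2 and 24.0 FPKM for the cytosolic ones. IARS2 stood apart within the class at 44.8 ± 2.7 and 42.9 ± 1.6 FPKM, the fifth level of all 36 members. At the other end, SARS2 was at 0.882, 1.14 and 0.594 FPKM in controls and 0.619, 0.864 and 0.751 after knockdown, an estimated 26 to 47 fragments per library. VARS2 was at 0.129, 0.0973 and 0.114 against 0.0994, 0.0568 and 0.0363 FPKM, which is 4 to 16 fragments per library. Both failed the filter and were not tested, and their groups overlapped.

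**Figure D2:**
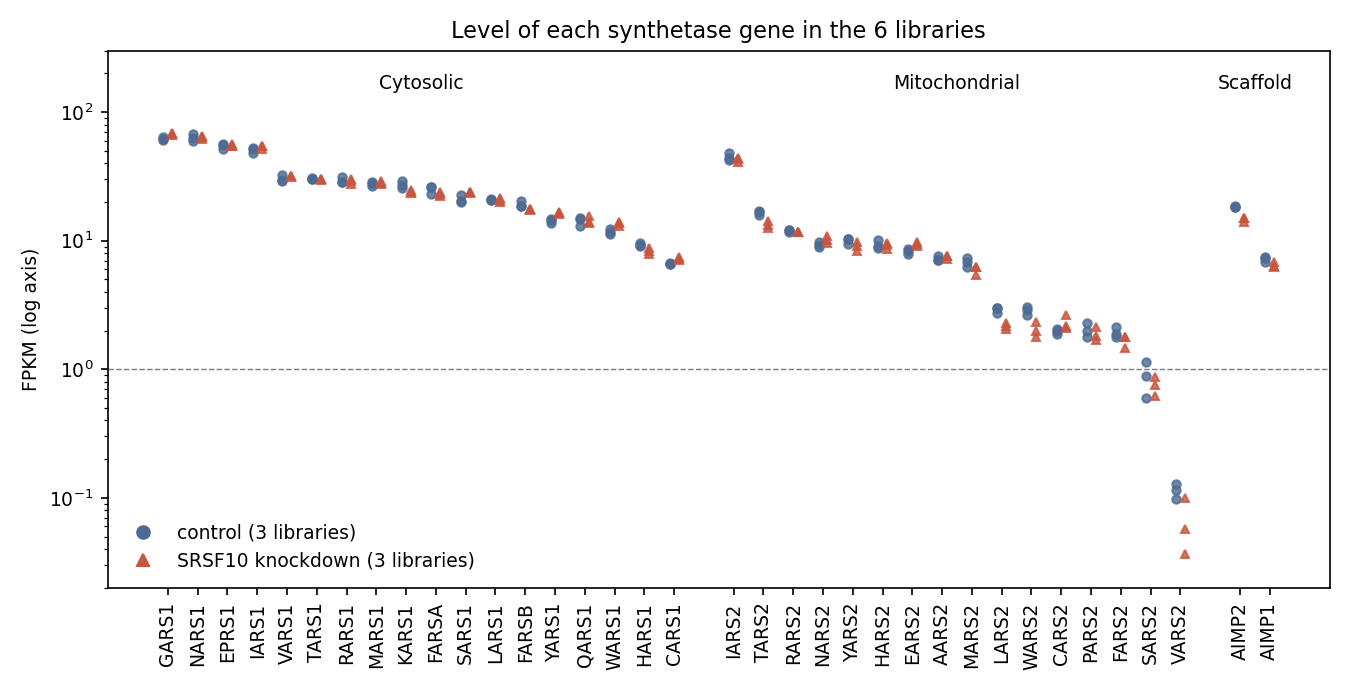
FPKM (log axis) of all 36 members in the 6 libraries, ordered by level within the cytosolic, mitochondrial and scaffold classes; circles are the 3 control and triangles the 3 knockdown libraries, and the dashed line marks the filter at 1 FPKM. The differences between the groups are small beside those between genes, and SARS2 and VARS2 lie at the bottom.

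Among the 18 cytosolic synthetases 3 rose and 0 fell, 16.7% and 0%, beside 12.6% and 12.5% of all tested genes. The difference from all genes was not tested. The median log2 fold change of the class was 0.02. The largest estimate was that of WARS1, the tryptophan enzyme, which is also known as a gene induced by interferon. WARS1 stood at 11.3, 11.6 and 12.3 FPKM in controls and at 13.9, 12.9 and 13.8 after knockdown. Every knockdown library was above every control. The mean rose by 15.8% (log2 fold change 0.20, SE 0.047, 95% interval 0.083 to 0.309, adjusted p = 0.0251).

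YARS1 charges tyrosine. It stood at 14.5, 14.7 and 13.6 FPKM in controls and at 16.3, 16.5 and 16.7 after knockdown, again with no overlap, and its mean rose by 15.3% (log2 fold change 0.19, SE 0.041, adjusted p = 0.0155). GARS1, the glycine enzyme and with NARS1 the highest member in FPKM, stood at 61.1, 64.0 and 62.3 FPKM against 66.7, 68.3 and 67.5. All 3 knockdown values of GARS1 were above the controls, but the step was small, 8.03% (log2 fold change 0.11, SE 0.031, adjusted p = 0.0434). GARS1 is 1 of the 7 members with a TGATGNAA match in its promoter, whereas the WARS1 window held none.

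These cytosolic calls depended on which libraries entered the fit. Of the 3, 1 was left without control replicate 1, knockdown replicate 1 or knockdown replicate 2, 2 without control replicate 3 and 0 without knockdown replicate 3. The adjusted p of WARS1 was 0.0753 without control replicate 1, 0.0647 without control replicate 2, 0.0842 without knockdown replicate 1 and 0.0866 without knockdown replicate 3. For YARS1 it was 0.0549 without knockdown replicate 2 and 0.0609 without knockdown replicate 3. GARS1 kept its call only without control replicate 2, and its adjusted p was 0.117 without control replicate 1, 0.0842 without control replicate 3, and 0.0900, 0.142 and 0.122 without knockdown replicates 1, 2 and 3. With no filter on low values the adjusted p was 0.0591 for WARS1 and 0.0735 for GARS1, and without the trend it was 0.103 for GARS1. The estimates of all 3 genes stayed positive in each of these fits.

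**Figure D3:**
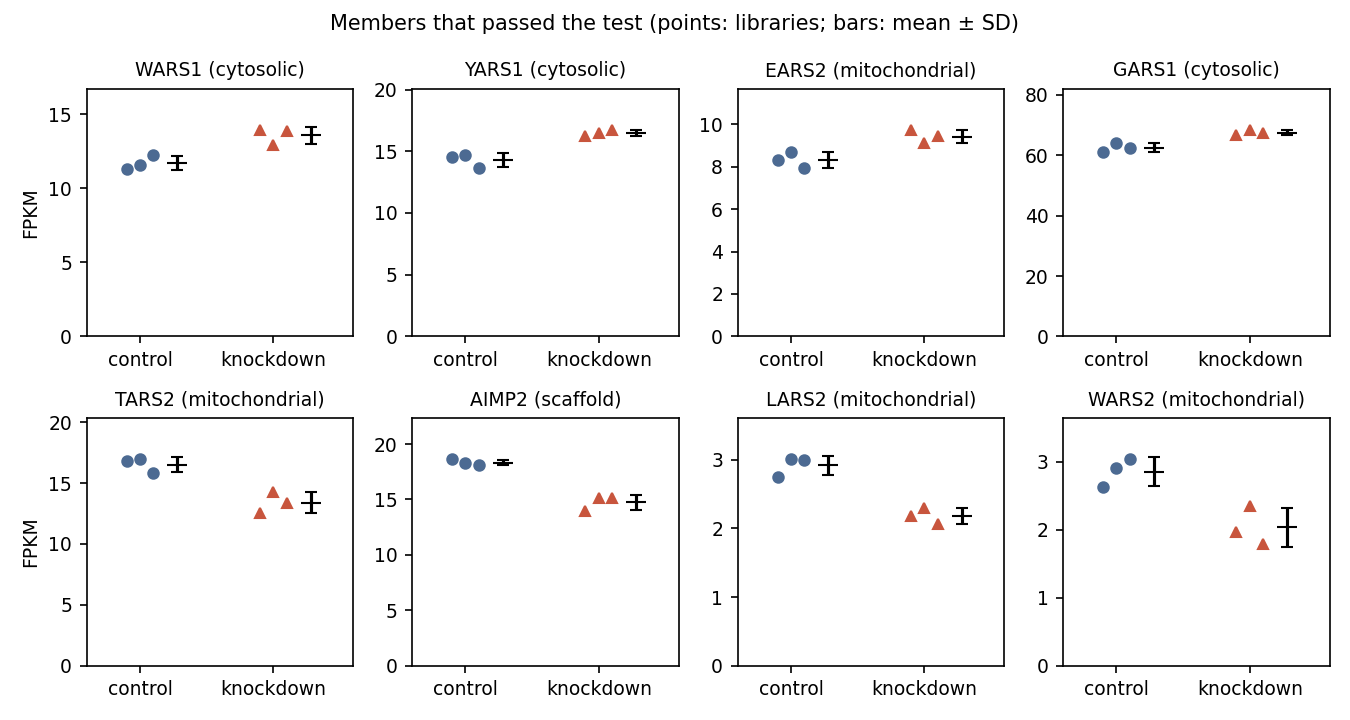
FPKM of the 8 members that passed the test, in each of the 3 control (circles) and 3 knockdown (triangles) libraries, with the mean and SD as bars; axes start at 0. In every panel the groups do not overlap, and the differences run from 8.03% in GARS1 to 28.6% in WARS2.

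The other 15 cytosolic enzymes did not pass. Closest to the threshold were KARS1 (lysine), which stood at 27.1, 29.3 and 25.7 FPKM in controls and 25.0, 23.9 and 23.7 after knockdown (log2 fold change -0.17, adjusted p = 0.0554), and SARS1 (serine), at 20.1, 22.8 and 20.5 against 24.1, 23.8 and 23.4 FPKM (0.16, adjusted p = 0.0601). Neither gene's groups overlapped. Without control replicate 3, KARS1 passed (adjusted p = 0.0295), as did FARSA, a subunit of the phenylalanine enzyme (-0.16, adjusted p = 0.0411). SARS1 passed without control replicate 2 (adjusted p = 0.0129).

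FARSA and FARSB, the catalytic and the other subunit of the phenylalanine enzyme, had estimates of the same sign. FARSA was at 25.0 ± 1.9 and 23.2 ± 0.80 FPKM and FARSB at 19.1 ± 1.0 and 17.4 ± 0.22 (SD, n = 3 each), with log2 fold changes of -0.10 and -0.12. HARS1 (histidine) had an estimate of -0.15 (adjusted p = 0.0787) and CARS1 one of 0.11 (adjusted p = 0.0948), and neither gene's groups overlapped. The remaining 9, the enzymes for isoleucine, valine, glutamate and proline, glutamine, methionine, asparagine, leucine, threonine and arginine, had estimates between -0.03 (RARS1) and 0.08 (IARS1).

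Split by the multisynthetase complex, 0 of 7 cytosolic enzymes that belong to it passed (EPRS1, IARS1, KARS1, LARS1, MARS1, QARS1 and RARS1), with a median of 0.02. All 3 that rose were among the 11 outside it, 27.3% beside 12.6% of all tested genes, and the median of these 11 was 0.05. The difference between these groups of genes was not tested. Summed over all 18 genes, the cytosolic level was 507 to 535 FPKM in controls and 522 to 532 after knockdown, so the sums overlapped.

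The genes with the promoter element had mixed values. Of the 6 with a TGATGNAA match GARS1 rose, and CARS1, IARS1, MARS1, NARS1 and TARS1 did not pass (log2 fold changes 0.11, 0.08, 0.02, -0.0030 and -0.02). YARS2, the mitochondrial member with a match, had -0.13 and did not pass.

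Among the 14 tested mitochondrial synthetases 1 rose and 3 fell, 7.14% and 21.4%, beside 12.6% and 12.5% of all tested genes. The difference from all genes was not tested. The median log2 fold change of the class was -0.06. TARS2, the mitochondrial threonine enzyme, stood at 16.8, 16.9 and 15.8 FPKM in controls and at 12.6, 14.3 and 13.3 after knockdown. All knockdown values were below all controls, and the mean fell by 18.9% (log2 fold change -0.28, SE 0.055, adjusted p = 0.0111). This call held without each library in turn.

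LARS2, the mitochondrial leucine enzyme, stood at 2.75, 3.005 and 2.999 FPKM in controls and 2.19, 2.29 and 2.06 after knockdown, 25.3% lower on average (log2 fold change -0.30, SE 0.063, adjusted p = 0.0152). WARS2, which charges mitochondrial tryptophan tRNA, stood at 2.62, 2.90 and 3.03 against 1.97, 2.35 and 1.79 FPKM, 28.6% lower (log2 fold change -0.35, SE 0.088, adjusted p = 0.0295). Neither gene's groups overlapped. Both are low, with an estimated 180 to 277 fragments per library for LARS2 and 88 to 158 for WARS2, and the log2 scale with 1 added understates the change of such genes.

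EARS2, the mitochondrial glutamate enzyme, was the member of its class that rose. It also supplies the glutamate that is later converted to glutamine on mitochondrial glutamine tRNA. It stood at 8.31, 8.68 and 7.94 FPKM in controls and 9.72, 9.11 and 9.44 after knockdown, 13.4% higher (log2 fold change 0.16, SE 0.047, adjusted p = 0.0449). The knockdown values were all above the controls, the lowest of them by little.

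Without single libraries the EARS2 call remained only when control replicate 2 was left out. Its adjusted p was 0.102 without control replicate 1, 0.104 without control replicate 3, and 0.136, 0.0745 and 0.118 without knockdown replicates 1, 2 and 3. WARS2 did not pass without control replicate 2 (0.0769), control replicate 3 (0.0784), knockdown replicate 1 (0.0861) or knockdown replicate 3 (0.0872). LARS2 did not pass without knockdown replicate 3 (0.0555), when 1 of the 3 lower calls was left. With no filter on low values the adjusted p was 0.0917 for EARS2 and 0.0909 for WARS2, and without the trend it was 0.0595 for EARS2.

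The other 10 tested mitochondrial enzymes did not pass. Of these, CARS2 (cysteine) and NARS2 (asparagine) had the highest estimates, 0.15 and 0.12, and MARS2 (methionine), FARS2 (phenylalanine) and YARS2 (tyrosine) the lowest, -0.16, -0.13 and -0.13. CARS2 stood at 1.99, 1.88 and 2.07 FPKM in controls and 2.16, 2.09 and 2.66 after knockdown, all 3 above the controls but 1 of them well above the rest. FARS2 and RARS2 (arginine) lay lower in every knockdown library than in any control, yet by amounts within the error of the fit (-0.13, SE 0.086, and -0.04, SE 0.035). AARS2, HARS2, IARS2 and PARS2, for alanine, histidine, isoleucine and proline, had estimates of 0.04, -0.02, -0.06 and -0.06. The summed mitochondrial level was 133 to 143 FPKM in controls and 127 to 133 after knockdown, 5.01% lower on average, and the sums overlapped.

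Of the 2 scaffold proteins AIMP2 fell and AIMP1 did not pass. AIMP2 holds the complex together and had the smallest adjusted p of all members. It stood at 18.6, 18.2 and 18.1 FPKM in controls and at 13.9, 15.1 and 15.1 after knockdown, a drop of 19.7% with no overlap (log2 fold change -0.30, SE 0.042, adjusted p = 0.00381), and it passed without each library in turn. AIMP1 binds tRNA in the complex. It stood at 6.88, 7.30 and 7.47 FPKM against 6.21, 6.79 and 6.36, also without overlap (-0.14, SE 0.051, adjusted p = 0.0907).

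AIMP2 (chr7:6009245-6023834, plus strand, GRCh38) shares 28.9% of its exon bases with EIF2AK1, a kinase of the integrated stress response that lies on the opposite strand. EIF2AK1 rose, from 44.1 ± 1.1 to 48.6 ± 1.3 FPKM (SD, n = 3; log2 fold change 0.14, adjusted p = 0.0315), while AIMP2 fell. Whether the counting used strand is not given in the sources used here, and without strand, fragments from the shared bases cannot be told apart.

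The balance between the cytosolic and the mitochondrial enzyme was followed within each library for 12 amino acids. The cytosolic gene was the higher in FPKM in all 6 libraries in 11 of the 12 pairs. For histidine the genes were nearly level in FPKM, and HARS1 was above HARS2 in 2 of 6 libraries. Their ratio was 1.002 ± 0.051 in controls and 0.911 ± 0.037 after knockdown (SD, n = 3). HARS1, with 7853 exon bases, had an estimated 838 to 1047 fragments per library, and HARS2, with 3736, had 446 to 487.

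On the log2 scale, with 1 FPKM added, the ratio shifted up in 9 pairs and down in 3, with a median shift of 0.16. Its 3 knockdown values did not overlap the controls in 7 pairs, 6 up (tryptophan, tyrosine, leucine, threonine, isoleucine and valine) and 1 down (asparagine). Over all tested genes, 20.6% lay above and 22% below the controls in all 3 knockdown libraries, a share of single genes and not of ratios. In an exact two-sided permutation test over the 6 libraries each of these reached p = 0.1, the smallest possible, and 0.171 after Benjamini-Hochberg adjustment over the 12 pairs. No pair could pass the threshold with this test.

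Of the 10 pairs with both genes tested, tryptophan shifted most, by 0.54. WARS1 was 4.31, 3.99 and 4.04 times the level of WARS2 in controls and 7.07, 5.51 and 7.73 times after knockdown. Both sides of this pair had moved, WARS1 up and WARS2 down. For leucine the ratio was 7.54, 7.08 and 6.93 in controls and 9.12, 9.38 and 9.95 after knockdown, a shift of 0.28, where LARS2 fell and LARS1 stood at 20.9 ± 0.28 and 20.7 ± 0.78 FPKM.

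For tyrosine YARS1 was 1.54, 1.44 and 1.33 times the level of YARS2 in controls and 1.80, 1.97 and 1.72 times after knockdown, a shift of 0.32. For threonine TARS1 was 1.81, 1.78 and 1.94 times TARS2 in controls and 2.36, 2.09 and 2.25 times after knockdown, a shift of 0.26. TARS1 itself was at 30.4 ± 0.24 and 29.9 ± 0.15 FPKM, so the threonine ratio moved with TARS2. The asparagine ratio went the other way, from 6.82 ± 0.079 to 6.21 ± 0.33, a shift of -0.12, and neither NARS1 nor NARS2 passed alone. The serine and valine pairs hold the untested SARS2 and VARS2. With 4 to 16 fragments of VARS2 per library, the valine shift was 0.11 with 1 FPKM added and 0.44 with 0.1 added, and VARS1 alone overlapped between the groups.

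**Figure D4:**
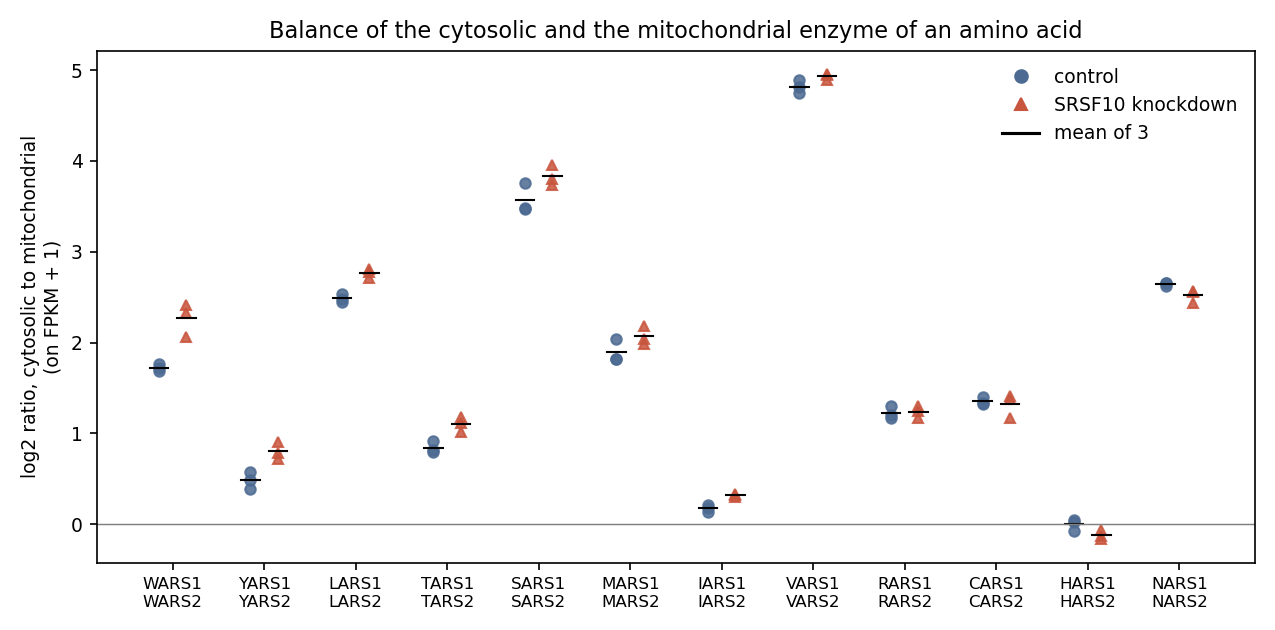
Log2 ratio of the cytosolic to the mitochondrial gene (y axis, on FPKM + 1) for 12 amino acids, 1 point per library, with the mean of each group of 3 as a line. The tryptophan, tyrosine, leucine and threonine ratios lie higher in every knockdown library, the asparagine ratio lies lower, and the histidine ratio lies near 0.

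The 8 members that moved are spread over 5 chromosomes (GRCh38, GENCODE annotation). WARS1 is at chr14:100333788-100376805 and EARS2 at chr16:23522014-23557731, both on the minus strand, and GARS1 is at chr7:30594681-30634033 on the plus strand. On chromosome 1 lie YARS1 (chr1:32775237-32818153, minus), TARS2 (chr1:150487364-150507609, plus) and WARS2 (chr1:119031216-119140671, minus). The 3 on chromosome 1 lie far from each other, as do GARS1 and AIMP2 on chromosome 7.

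LARS2 (chr3:45388506-45549421, plus strand) lies on chromosome 3, where many genes fell. Of 718 tested genes there, 315 fell and 34 rose, and their median log2 fold change was -0.19. Within 1000000 bases of LARS2, 9 of 18 tested genes fell and 0 rose, with a median of -0.22, beside -0.30 for LARS2 itself. The other member on this chromosome, QARS1 (chr3:49095932-49105135, minus strand), the glutamine enzyme, was at 14.9, 13.0 and 14.7 FPKM in controls and 14.1, 15.4 and 13.8 after knockdown, with overlap. Its estimate was 0.02 (95% interval -0.13 to 0.17), while 23 of its 42 tested neighbours fell and 1 rose, with a median of -0.27. WARS2 lies among genes that went the other way, as 2 of its 3 tested neighbours rose, with a median of 0.41. The part of position in these results was not tested.

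Exons of 21 of the 36 members overlap those of another gene, which matters where strand was not used. Among the members that moved, the shared part was 10.6% of exon bases for WARS1, 6.46% for EARS2, 4.82% for YARS1, 4.68% for WARS2, 2.38% for GARS1 and 1.62% for TARS2, and LARS2 shared none. The partners of EARS2 and YARS1 had estimates of the opposite sign and did not pass (UBFD1 -0.17 and S100PBP -0.09). The partner of WARS1, WDR25, stood at 0.746 ± 0.15 and 0.575 ± 0.096 FPKM. HARS1 and HARS2 are arranged head to head. Their RefSeq starts lie 85 bases apart, 184 bases of their promoter windows are the same stretch, and their estimates were -0.15 and -0.02.

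Other genes of tRNA charging were read from lists, which were chosen with earlier results of these data known. Of 15 further genes for aminoacylation and for editing of charged tRNA, 12 were tested. Of these 1 fell and 0 rose, 8.33% and 0%, beside 12.5% and 12.6% of all genes, with a median of -0.10. The one that fell was MTFMT, which formylates the methionine on the mitochondrial initiator tRNA, from 5.15, 5.29 and 5.36 FPKM to 3.85, 3.94 and 3.26 (log2 fold change -0.42, adjusted p = 0.00578). AARS1, the cytosolic alanine enzyme, named here for its function, did not pass and stood at 49.4 ± 2.1 and 52.9 ± 0.90 FPKM (SD, n = 3 each). The third scaffold of the complex, EEF1E1, was at 5.63, 5.50 and 3.22 FPKM in controls and 4.04, 5.03 and 4.27 after knockdown, with a low value in control replicate 3.

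Among 22 tested genes of tRNA processing and export, 2 rose and 6 fell, 9.09% and 27.3% beside 12.6% and 12.5% of all genes, with a median of -0.06. HSD17B10, a subunit of mitochondrial RNase P, rose from 32.0 ± 1.2 to 47.6 ± 0.79 FPKM (adjusted p = 0.000405), and XPOT, the export receptor of tRNA, named after its values were seen, rose from 57.0 ± 1.6 to 62.0 ± 0.97 (adjusted p = 0.0416). POP1 of nuclear RNase P fell from 21.9 ± 1.0 to 17.6 ± 0.62 FPKM, and TRNT1, which adds the CCA end and lies on chromosome 3, from 5.86 ± 0.30 to 4.23 ± 0.43.

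Among 27 tested tRNA modification genes 7 fell and 0 rose, 25.9% and 0%, beside 12.5% and 12.6% of all genes, with a median of -0.09. TRMT6, a subunit of the m1A methyltransferase, fell from 16.7 ± 0.23 to 13.5 ± 0.69 FPKM (log2 fold change -0.28, adjusted p = 0.00542). QTRT2 of the queuine transferase, a gene of chromosome 3, fell from 10.2 ± 0.76 to 7.70 ± 0.29 FPKM, NSUN2, an m5C methyltransferase, from 20.3 ± 0.57 to 17.5 ± 0.91, and PUS7, a pseudouridine synthase, from 42.6 ± 0.52 to 38.6 ± 1.2. Of the elongation factors 2 of 8 fell and 0 rose, 25% and 0%, beside the same 12.5% and 12.6%. GFM1, on chromosome 3, and GFM2, on chromosome 5, are both mitochondrial factors. GFM1 went from 19.1 ± 0.20 to 14.7 ± 0.24 FPKM (adjusted p = 0.000924) and GFM2 from 15.4 ± 0.34 to 12.9 ± 0.11 (adjusted p = 0.00439).

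In the ATF4 axis, of 19 tested genes 7 rose and 0 fell, 36.8% and 0%, beside 12.6% and 12.5% of all genes. All 19 estimates were positive, and the median was 0.15. The list was chosen with earlier results of these data known, so these shares describe it and do not test it. PSPH of serine synthesis rose from 17.1 ± 0.66 to 21.8 ± 0.56 FPKM, the stress pseudokinase TRIB3 from 31.8 ± 1.1 to 40.3 ± 1.6, STC2 from 10.5 ± 1.1 to 15.3 ± 0.50, and NUPR1 from 3.27 ± 0.25 to 5.25 ± 0.57. ATF4 itself did not pass (56.5 ± 2.1 and 62.0 ± 2.9 FPKM, log2 fold change 0.13, adjusted p = 0.0745).

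**Figure D5:**
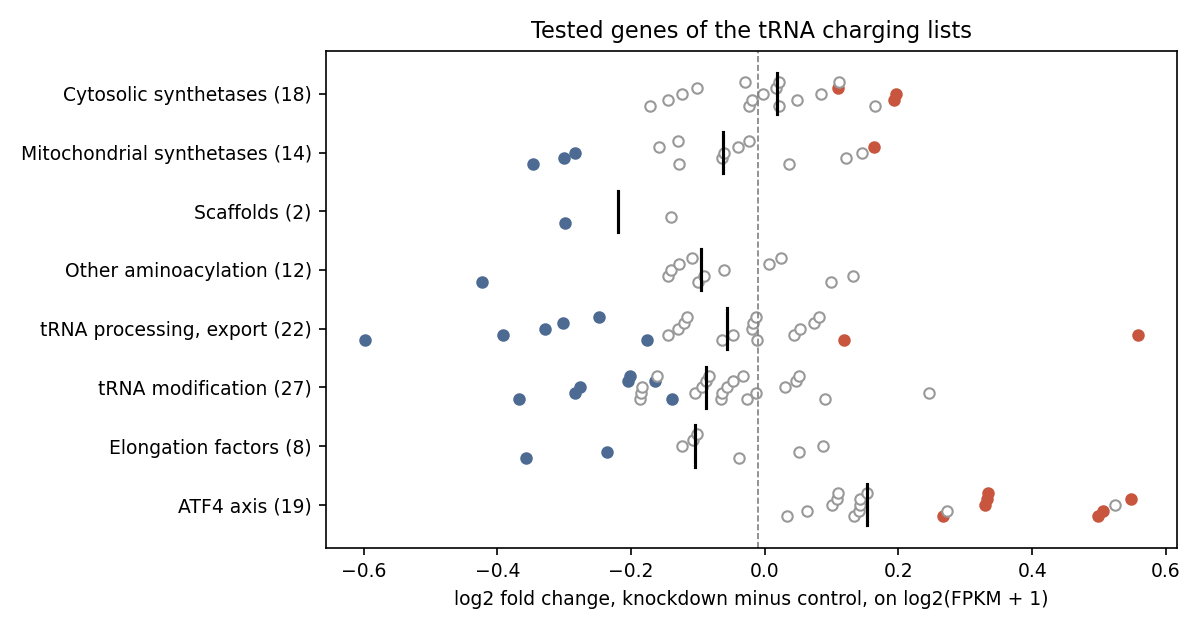
Log2 fold change, knockdown minus control, of each tested gene in 8 lists (number tested in brackets); filled points passed the adjusted threshold of 0.05, black bars are list medians and the dashed line is the median of all tested genes, -0.01. The ATF4 axis lies to the right of the dashed line, and the medians of the mitochondrial synthetases, scaffolds and other tRNA lists lie to its left.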

How the data were processed

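Total RNA of 6 Huh7 libraries was sequenced on an Illumina instrument, per the labels' protocols. FastQC 0.11.9, Trim Galore 0.6.5-1 and GRCh38 are named per the submitters' processing notes. The aligner, the counter and its strand setting were not given in the sources used here. Values are the FPKM that the authors deposited per gene, scaled to gene length and library size. From these, log2(FPKM + 1) was tested with limma 3.58.1 (R 4.3.3, trend on mean level) for 12191 genes with at least 1 FPKM in at least 3 libraries, after a test on simulated data. Samples were grouped by title, with 3 libraries in each group. Depth was estimated from FPKM steps and GENCODE 29 exon lengths; 86.1% to 86.9% of low values came out whole within 0.05 of a fragment, too few to run a count test. Pairs were tested by exact permutation (SciPy 1.17.1). Intervals cover 95%.

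Members and lists were chosen with earlier results of these data known. All 36 members and SRSF10 are named, and in other lists up to 4 genes with the smallest adjusted p, some of which are not reported here. The alternatives were a pseudocount of 0.1, no filter or 5 FPKM, a replicate block, median-of-ratios scaling, rescaling without mitochondrially encoded genes, no trend, and leaving out each library. Libraries correlated at 0.986 to 0.988 within groups and 0.971 to 0.976 between them.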

Additional observations from a re-analysis of the deposited data

How the results depend on the processing

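Over 13 alternatives the 34 tested members gave 437 values, of which 386 kept their direction and side of the threshold, 31 lost and 7 gained a call, and 13 changed sign, all in 7 members that passed in neither fit. AIMP2 (adjusted p 0.00183 to 0.0184) and TARS2 (0.00570 to 0.0421) passed in 13 of 13, LARS2 in 11 of 12, YARS1 in 11 of 13, WARS1 in 7 of 13, WARS2 in 6 of 12, and GARS1 and EARS2 in 5 of 13 each. With no filter on low values, 1013 genes fell against 1525, 1 cytosolic and 0 mitochondrial members rose, and more genes entered the adjustment. With 5 FPKM required, 1 cytosolic (KARS1) and 1 mitochondrial member fell, and LARS2 and WARS2 were not tested. SARS1 rose in that fit (limma adjusted p = 0.0417). Rescaled without mitochondrially encoded genes, 1 cytosolic member (KARS1) fell, and without the trend 0 mitochondrial members rose; the cause was not tested. With 1 library left out, 894 to 1352 genes rose and 964 to 1327 fell, 0 to 3 cytosolic members rose and 0 to 2 fell, and 0 to 1 mitochondrial members rose and 1 to 3 fell. Medians ranged from 0.000657 to 0.0319 (cytosolic) and -0.0887 to -0.0449 (mitochondrial). Of the pairs, 7 to 9 did not overlap. Leaving out a library cannot make separate groups overlap, so this count could not fall and does not measure stability. The replicate numbers did not pair the libraries (correlations of same-numbered deviations 0.0156, 0.0570 and -0.0715). With a replicate block 1193 genes rose and 1146 fell, with 1 cytosolic and 0 mitochondrial members higher and 0 and 2 lower. With median-of-ratios scaling SARS1 rose (limma adjusted p = 0.0431), and the estimate of NARS1 was 0.0104. With 1 library left out, estimates that changed sign ranged from -0.0427 to 0.0382 in NARS1, -0.0169 to 0.0478 in EPRS1, -0.0353 to 0.0546 in QARS1, -0.0584 to 0.0189 in RARS1, -0.0589 to 0.0292 in HARS2, -0.0140 to 0.0393 in MARS1 and -0.0470 to 0.00445 in LARS1. Depth limits SARS2 and VARS2, which had at most 47 and 16 estimated fragments in a library.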

Other observations

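The lowest members overlap other genes in much of their length. VARS2 shares 22.0% of its exon bases with GTF2H4, a TFIIH subunit on the same strand. GTF2H4 itself stood at 0.0635 ± 0.0039 FPKM in controls and 0.0830 ± 0.087 after knockdown (SD, n = 3 each). Other TFIIH subunits, chosen after the GTF2H4 value was seen, had control levels above that of GTF2H4. These were 15.1 ± 0.47 FPKM for GTF2H1, 12.7 ± 1.1 for GTF2H3, 6.85 ± 0.59 for ERCC3, 4.21 ± 0.11 for ERCC2, 1.64 ± 0.20 for GTF2H2 and 1.02 ± 0.097 for GTF2H5. Of these only GTF2H3 passed the test, lower after knockdown at 9.75 ± 0.63 FPKM (limma adjusted p = 0.0136).

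SARS2 shares 57.0% of its exon bases with other genes, and 47.7% of its stretches of 50 bases also occur in their transcripts. The overlapping gene MRPS12, a mitochondrial ribosomal protein on the opposite strand, stood at 16.6 ± 1.0 FPKM and fell to 12.5 ± 1.3 (log2 fold change -0.38, limma adjusted p = 0.0152).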
